A study of Mus musculus with 2 samples.

Results

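The Notch receptors, their ligands and the nuclear mediator Rbpj make up 10 of the 43346 mouse genes measured in embryonic heart. They were chosen by name, from gene identifiers matched to symbols, as the receptors Notch1, Notch2, Notch3 and Notch4, the ligands Dll1, Dll3, Dll4, Jag1 and Jag2, and Rbpj, and all 10 were found. The study measured total RNA of hearts from B6NCrl mouse embryos at embryonic day 11.5 in 2 libraries, replicate 1 and replicate 2, with no treatment, genotype or second tissue to compare. Each library came from its own pool of hearts of both sexes under 1 donor identifier. Replicate 1 pooled 109 embryos according to its labels, which name no such figure for replicate 2. RNA was extracted with the mirVana kit, and 10 ng went into each library.

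Notch signalling passes between touching cells. A ligand of the Delta or Jagged type on 1 cell pulls on a Notch receptor on its neighbour, ADAM proteases and then gamma-secretase cut the receptor, and the freed intracellular part enters the nucleus, where it joins Rbpj and a Mastermind protein to switch on genes such as the Hes and Hey repressors. Without the receptor fragment, Rbpj binds the same DNA together with corepressors. In the embryonic heart the pathway is known for its work in the endocardium, the inner lining of the chambers, in forming trabeculae and valve cushions, and in the smooth muscle of the outflow arteries.

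Rbpj is known to bind DNA at the letters TGGGAA, often preceded by a G. The start of its own gene and those of the target genes Hey2 and Hes5 are shown because these letters occur in each of them, while the RNA level of Hes5 lay far below those of the other two. The sequences come from RefSeq on GRCm38.p6 and run 5′ to 3′ on the gene's strand, from 250 bases before the annotated start to 10 bases after it. Capitals mark TGGGAA or its reverse complement TTCCCA, and positions count from 1 at the first base printed. The Rbpj sequence is chr5:53590096-53590355 on the plus strand, with matches starting at positions 102 and 186; its annotated start lies inside the span that GENCODE gives the gene. The Hey2 sequence is chr10:30842774-30843033 on the minus strand, with matches at 44 and 248, and the Hes5 sequence is chr4:154960673-154960932 on the plus strand, with matches at 25 and 169.
Rbpj: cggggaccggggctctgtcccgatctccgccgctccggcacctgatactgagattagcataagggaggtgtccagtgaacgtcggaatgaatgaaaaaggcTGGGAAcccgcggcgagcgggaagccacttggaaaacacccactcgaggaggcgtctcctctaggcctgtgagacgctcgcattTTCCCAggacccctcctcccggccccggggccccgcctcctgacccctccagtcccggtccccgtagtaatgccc
Hey2: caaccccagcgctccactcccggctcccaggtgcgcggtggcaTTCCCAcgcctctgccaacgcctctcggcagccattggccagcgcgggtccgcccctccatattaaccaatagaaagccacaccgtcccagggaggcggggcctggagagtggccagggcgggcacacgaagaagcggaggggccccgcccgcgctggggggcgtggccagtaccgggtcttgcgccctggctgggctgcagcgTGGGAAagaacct
Hes5: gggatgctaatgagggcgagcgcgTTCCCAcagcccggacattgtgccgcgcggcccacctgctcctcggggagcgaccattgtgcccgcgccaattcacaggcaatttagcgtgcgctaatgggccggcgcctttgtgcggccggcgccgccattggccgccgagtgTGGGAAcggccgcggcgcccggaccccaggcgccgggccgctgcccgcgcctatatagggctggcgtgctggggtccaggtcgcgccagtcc
Both matches of Hey2 and both of Hes5 extend to the longer form GTGGGAA, which contains TGGGAA, and neither match of Rbpj does. Among 12 windows of 300 bases (250 before and 50 after a start) that cover all 10 members, only those of Rbpj held TGGGAA, and none held GTGGGAA. Over all 27025 genes with such a window, 28.3% held TGGGAA and 7.25% held GTGGGAA on either strand. Of the 6 listed target genes with a window, 3 held TGGGAA, the third being Bmp10 with 1 match and no GTGGGAA. A match is a description of the letters and shows no binding.

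Levels below are in TPM, an abundance per transcript scaled to the same sum in each library, which corrects for gene length and so allows genes to be set side by side. Detection means that neither library gave a TPM under 1. By that rule 8 of the 10 members were detected, beside 56.4% of all protein-coding genes. Jag2 and Dll3 were the exceptions. The median of the members' mean TPM was 4.86, against 15.99 over the 12118 detected protein-coding genes and 2.96 over all 21474 protein-coding genes. Rbpj, the highest member by mean TPM, stood at place 5770 of the 16938 protein-coding genes with a value above 0. Dll3, the lowest, stood at place 14199.

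**Figure D1:**
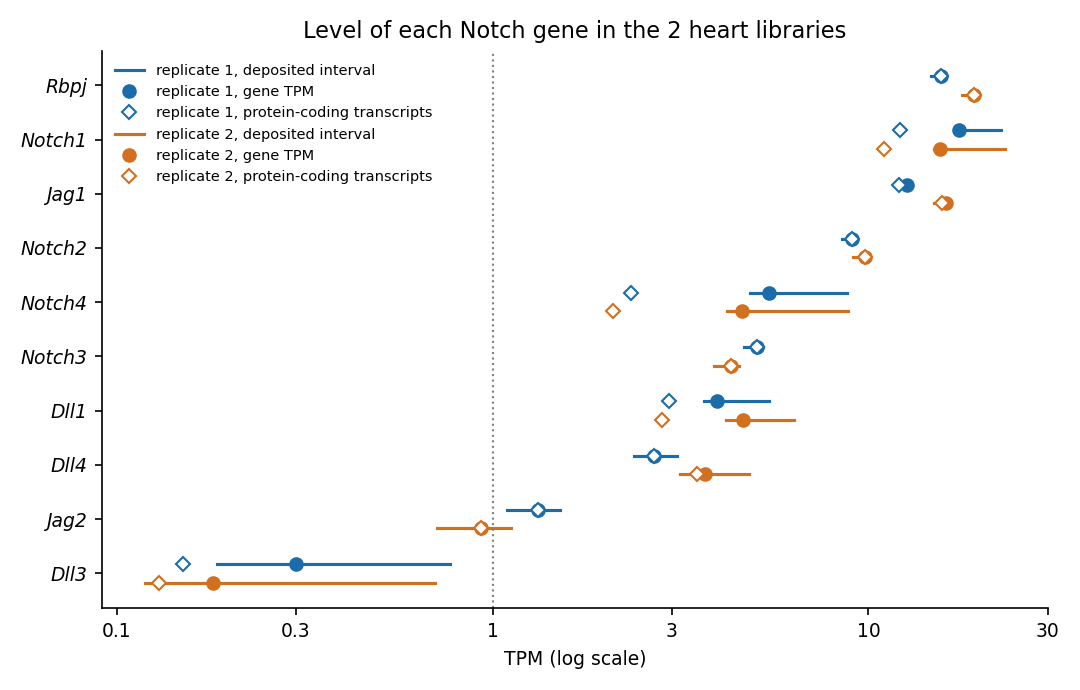
TPM of the 10 genes on a log axis, replicate 1 in blue above replicate 2 in orange. Filled circles are the gene's TPM, bars the interval deposited with it, open diamonds the TPM of its protein-coding transcripts alone, and the dotted line a TPM of 1. The diamonds of Notch1, Notch4, Dll1 and Dll3 lie left of their circles in both libraries, and those of Notch4 average 2.21 TPM against 5.03 TPM for the whole gene.

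The hearts' RNA held the 4 receptors at very unequal levels. Notch1, the receptor known for its role in the endocardium, had 17.4 TPM in replicate 1 and 15.5 TPM in replicate 2, from 3338 and 2113 expected counts. It averaged 16.4 ± 1.33 TPM (SD, n = 2). Notch2, known to act in smooth muscle of the outflow arteries, had 9.03 and 9.81 TPM in replicates 1 and 2. Notch2 lay below Notch1 in both libraries, with no overlap. Notch3, a receptor of mural cells around vessels, had 5.06 and 4.31 TPM, and Notch4, a receptor of vascular endothelium, had 5.44 and 4.61 TPM in the same order. The ranges of Notch3 and Notch4 overlapped, and both lay wholly below that of Notch2.

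The receptors' TPM summed to 36.9 in replicate 1 and 34.2 in replicate 2. Notch1 took 46.2% ± 1.28 of it (SD, n = 2), Notch2 26.6% ± 2.97, Notch4 14.1% ± 0.899 and Notch3 13.2% ± 0.790. Within libraries, Notch1 was 1.74-fold above Notch2 (log2 ratio 0.80 ± 0.20, SD, n = 2), 3.51-fold above Notch3 (1.81 ± 0.05) and 3.28-fold above Notch4 (1.71 ± 0.05). These shares are of RNA in a whole organ: in bulk samples fewer cells of a type and less RNA per cell cannot be told apart.

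Part of the level of Notch1 and Notch4 lay in transcripts that are not annotated as protein-coding. Notch1 (ENSMUSG00000026923.11, chr2:26457903-26516663 on the minus strand of GRCm38) has 11 annotated transcripts in the files. Its coding transcript Notch1-201, 9488 bases in 34 exons, held 96.7% and 98.4% of the gene's expected counts in replicates 1 and 2. It held only 69.3% and 70.9% of the gene's TPM. The rest came from 5 other transcripts with 110 and 33.6 expected counts in all, which carried 5.34 and 4.50 TPM, since TPM divides reads by transcript length. Among these only Notch1-206 is coding, with 1.30 and 0 counts. Some pieces had counts in 1 library only: Notch1-202, a noncoding transcript of 406 bases, had 0 and 17.9 counts, and Notch1-203, of 284 bases, had 10.1 and 0. Others had counts in both. The noncoding Notch1-207, of 434 bases, had 25.5 and 10.5 counts and 2.67 and 1.55 TPM in replicates 1 and 2. The retained intron Notch1-205, of 4132 bases, had 73.1 and 5.27 counts. Of the bases of Notch1-202, 92.1% also lie in exons of Notch1-201, and of those of Notch1-203, 86.3%.

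Notch4 showed the widest gap between reads and TPM. Notch4 (chr17:34564268-34588503, plus strand) has 12 transcripts, and its coding transcript Notch4-201, of 6591 bases, held 92.0% and 93.9% of the counts but 42.8% and 45.3% of the TPM. Notch4-203, a noncoding transcript of 356 bases, had 12.2 and 1.02 counts and 1.66 and 0.20 TPM. Notch4-209, a retained intron of 352 bases, had 3.37 and 7.12 counts, and the noncoding Notch4-210, of 619 bases, had 12.7 and 9.67. Counted over protein-coding transcripts alone, Notch4 had 2.33 and 2.09 TPM, and Notch1 had 12.2 and 11.0 TPM. Notch2 (chr3:98013527-98150361, plus strand) and Notch3 (chr17:32120820-32166852, minus strand) have 1 transcript each, and their levels are the same by either count.

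**Figure D2:**
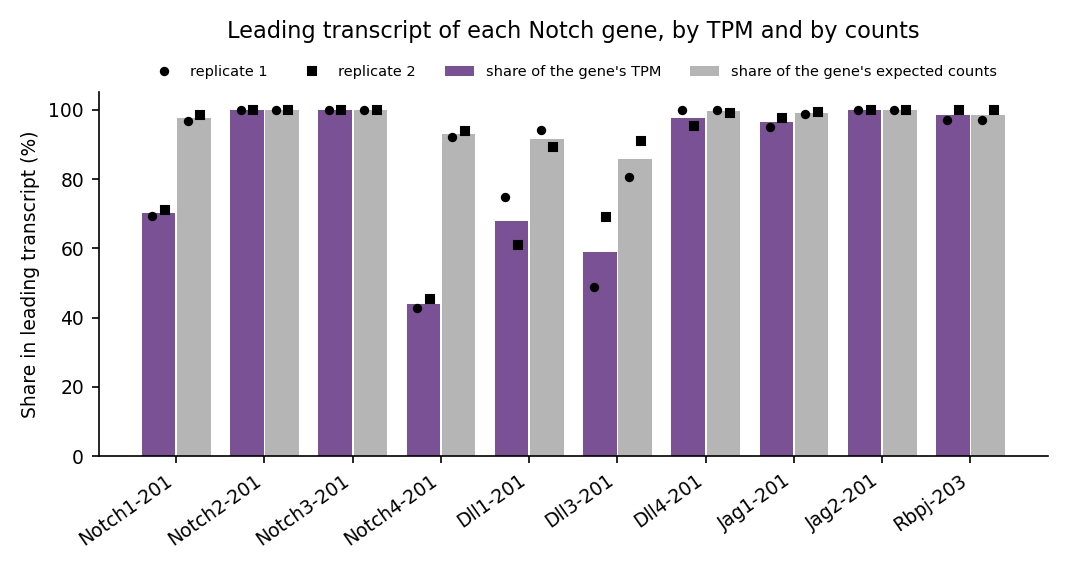
Share of each gene held by its leading transcript, as percent of the gene's TPM (purple) and of its expected counts (grey); bars are means, circles replicate 1 and squares replicate 2. By counts every leading transcript averages above 85%, whereas by TPM Notch4-201 averages 44.1%, Dll3-201 59.0%, Dll1-201 67.9% and Notch1-201 70.1%.

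The make-up of the receptors differed with that choice. Over protein-coding transcripts, Notch1 held 41.5% ± 1.52 of receptor TPM (SD, n = 2), Notch2 33.8% ± 3.16, Notch3 16.8% ± 1.31 and Notch4 7.92% ± 0.331. Notch1 was then 1.23-fold above Notch2 and 5.24-fold above Notch4. Notch3, with a mean of 4.69 TPM, was then above Notch4, with 2.21 TPM, in both libraries without overlap, whereas by gene TPM the pair overlapped.

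Among the ligands Jag1 led by a wide margin. Jag1 (chr2:137081456-137116644, minus strand), the Jagged ligand known for valve and outflow development, had 12.7 TPM in replicate 1 and 16.1 TPM in replicate 2, from 1918 and 1751 counts. It held 61.8% ± 1.80 of ligand TPM (SD, n = 2), and its coding transcript Jag1-201, of 5612 bases and 26 exons, held 96.3% ± 1.66 of the gene's TPM. A retained intron, Jag1-202, held the other 3.68%. Its relative Jag2 (chr12:112907819-112929776, minus strand) had 1.32 and 0.93 TPM, from 149 and 74 counts. Jag2 was thus under the threshold of 1 TPM in replicate 2 only and passed when that library was left out, and Jag1 was 12.9-fold above it (log2 ratio 3.69 ± 0.60, SD, n = 2). The single Jag2 transcript measures 4054 bases in the files' annotation and 5106 bases in the later GENCODE M21.

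The Delta ligands were lower than Jag1. Dll4 (chr2:119325784-119335962, plus strand), the Delta ligand of endothelium and endocardium, had 2.69 and 3.67 TPM in replicates 1 and 2, from 280 and 259 counts. Its level was 4.54-fold under that of Jag1 (log2 ratio of Dll4 over Jag1 -2.18 ± 0.07, SD, n = 2). Dll1 (chr17:15367354-15376872, minus strand), known best from somites and the nervous system, had 3.95 and 4.64 TPM, from 312 and 223 counts. By gene TPM the lower library of Dll1 was above the higher one of Dll4.

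The order of those Delta ligands did not hold on other scales. Dll1-204, a retained intron of 751 bases with 18.6 and 21.8 counts, carried 30.6% ± 7.41 of the TPM of Dll1 (SD, n = 2). The coding transcript Dll1-201 had 2.95 and 2.83 TPM, and the coding transcript of Dll4 had 2.69 and 3.5 TPM. The log2 ratio of Dll4 over Dll1 was -0.45 ± 0.15 by gene TPM, 0.09 ± 0.31 over protein-coding transcripts and 0.03 ± 0.26 by expected counts (SD, n = 2). On the last scales the replicates gave opposite signs, so these ligands were not told apart.

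Dll3 (chr7:28293553-28302238, minus strand), a divergent Delta protein that does not activate Notch on neighbouring cells and is known from somite formation, had 0.30 and 0.18 TPM. That rests on 13 and 7 counts, above the limit of 3 counts set here for a gene listed at 0. Of 8 markers of somites and presomitic mesoderm, 1 was detected, Meox1 at 10.2 ± 0.700 TPM (SD, n = 2), and Mesp2 followed at 0.425 TPM. The list summed to 11.4 and 12.3 TPM in replicates 1 and 2, and Msgn1, which marks presomitic mesoderm, had 1 and 0 counts. Of 9 neural markers 3 were detected, led by Tubb3 at 10.1 TPM and Elavl4 at 5.13 TPM; the list summed to 19.5 and 20.4 TPM, and Neurog1 had 3 and 0 counts. The part of such cells in the levels of Dll1 and Dll3 was not tested.

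Rbpj, the DNA-binding partner of every Notch receptor, was the highest of the 10 genes by mean TPM, though not by the posterior mean TPM. Rbpj (chr5:53466152-53657362, plus strand) had 15.6 TPM in replicate 1 and 19.1 TPM in replicate 2, from 2367 and 2043 counts. Its coding transcript Rbpj-203, of 5420 bases, held 97.1% and 100% of the gene's TPM, and the coding Rbpj-201 had 69.2 and 0 counts. Rbpjl, a paralog known from pancreas, had 10 and 4 counts. The processed copy Rbpj-ps3 had 9.18 and 5.17 counts and Rbpj-ps1 had 0 in both, so few reads were assigned to copies, though how the authors' counting divided shared reads is not given in the sources used here.

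In the order of mean TPM, 5 of the 9 neighbouring pairs were apart, meaning that the lower library of one gene exceeded the higher library of the next. Rbpj, Notch1 and Jag1 overlapped in turn at the top. Notch2 stood alone below them, then came Notch4, Notch3 and Dll1, which overlapped in turn, and then Dll4, Jag2 and Dll3, each apart from the one before. Over protein-coding transcripts 6 of 9 pairs were apart, and the order was Rbpj, Jag1 and Notch1 at the top, then Notch2, Notch3, the overlapping Dll4 and Dll1, Notch4, Jag2 and Dll3. Notch4, above Notch3 and Dll1 by gene TPM, was then below both and below Dll4. By posterior mean TPM 7 of 9 pairs were apart. Notch1, with 19.7 and 18.9 in replicates 1 and 2, then lay above Rbpj, with 15.3 and 18.5, without overlap. Notch4, with 6.75 and 6.53, then lay above Notch3, with 4.97 and 4.19, also without overlap.

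The intervals deposited with each TPM show the same genes as uncertain. For Notch1 the interval ran from 16.96 to 22.59 TPM in replicate 1 and from 15.0 to 23.1 TPM in replicate 2, with the TPM itself near the lower bound. That of Notch4 ran from 4.83 to 8.79 and from 4.20 to 8.81 TPM. Notch2, with 1 transcript, had the narrow intervals 8.53 to 9.20 and 9.12 to 9.95 TPM. The level of these intervals is not given in the sources used here, and no test rests on them.

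Genes on the opposite strand overlap some of the members. Without a stated strand setting, their reads in the shared stretch cannot be told apart from those of the member. The counts below are of whole overlapping genes, each of which reaches outside its member. At Notch1 the overlapping genes are Gm13568, with 118 and 43.6 counts in replicates 1 and 2, and 0610009E02Rik, with 18.0 and 40.7 counts. The overlapping genes at Dll4, Notch3 and Dll1, which are Gm14207, Gm17276 and A930024N18Rik, had 20 and 13, 12.9 and 5.37, and 4.4 and 2.43 counts. Each count was below that of the member.

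Between the libraries the 10 genes differed by at most 1.46-fold in scaled counts (with 0.5 added), the ratio of Jag2. In TPM the widest ratio was that of Dll3, with 0.30 TPM in replicate 1 and 0.18 TPM in replicate 2 from its 13 and 7 counts. Counts of replicate 1 were set against those of replicate 2 with an exact two-sided binomial test for each of 16621 genes, scaled by edgeR TMM sizes and adjusted by Benjamini-Hochberg. The test covers counting error alone and compares the libraries, not conditions. No member passed an adjusted p of 0.05 with a fold of 2 or more, beside 4.69% of all genes tested, and none did with DESeq2 size factors. At an unadjusted p under 0.05 without the fold, 7 members did, and the share of all genes at that threshold is not given here. At the adjusted p alone 6 of 10 members differed, beside 39.6% of all genes tested. Among so few genes nothing particular to the members is read from either count.

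Of those 6, Notch1, Notch3 and Jag2 were higher in replicate 1 and Dll4, Jag1 and Rbpj were higher in replicate 2. In log2 of replicate 1 over replicate 2, on the scale of scaled counts, Jag1 stood at -0.32 (adjusted p = 2.2e-10 by the binomial test), Rbpj at -0.24 (2.87e-07) and Dll4 at -0.34 (0.0203). Notch1 stood at 0.21 (adjusted p = 2.33e-06 by the binomial test), Notch3 at 0.28 (0.000282) and Jag2, the member with the largest ratio, at 0.55 (0.0198). Notch2, Notch4, Dll1 and Dll3 did not pass, with ratios of -0.07, 0.23, 0.03 and 0.39. Dll1 had the higher gene TPM in replicate 2 and the slightly higher scaled count in replicate 1.

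**Figure D3:**
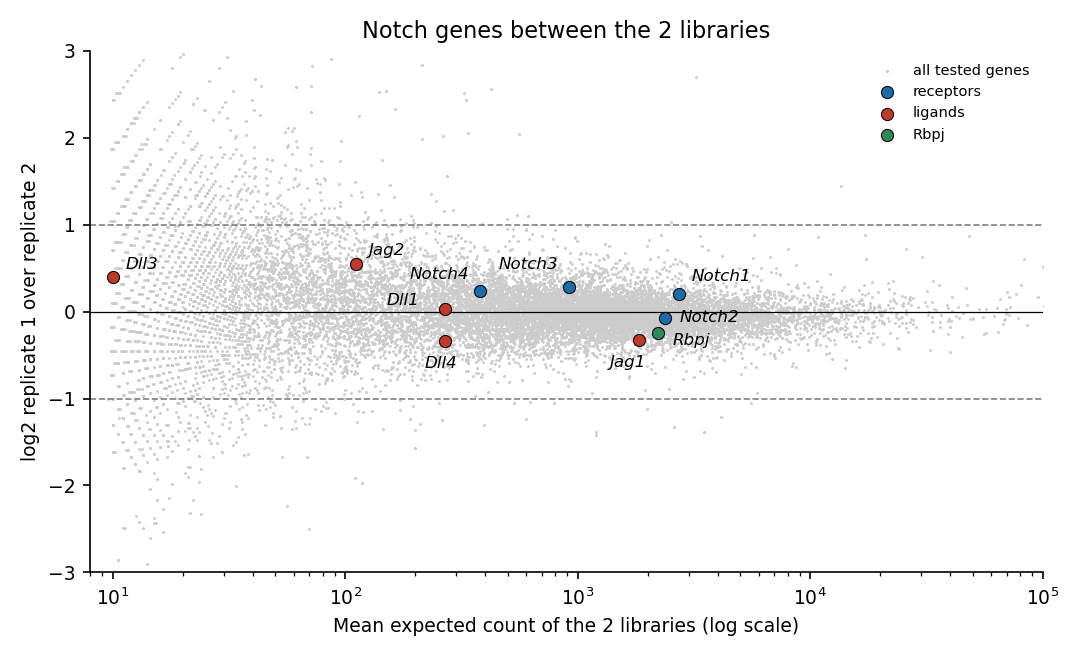
Log2 of replicate 1 over replicate 2 against the mean expected count, for the 16621 genes tested (grey; 85 lie outside the axes) and the 10 Notch genes. Receptors are blue, ligands red and Rbpj green, and dashed lines mark a fold of 2. All 10 lie between the dashed lines, with Jag2 highest at 0.55 and Dll4 lowest at -0.34.

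Markers of several cell types also had unequal TPM in the libraries. Of 11 endothelial and endocardial markers, led by Plvap at 116 ± 12.0 TPM and Egfl7 at 112 ± 6.80 TPM (SD, n = 2), 10 had the higher TPM in replicate 2 and 1, Npr3, in replicate 1. The markers summed to 529 TPM in replicate 1 and 613 TPM in replicate 2. Of 8 cardiomyocyte markers 7 had the higher TPM in replicate 2, with sums of 27294 and 29237 TPM in replicates 1 and 2. Of 9 mural and smooth muscle markers 6 did, with sums of 1599 and 1771 TPM, of which Acta2 alone held 1177 and 1290 TPM. Over all protein-coding genes, 7471 had the higher TPM in replicate 1 and 9334 in replicate 2. These marker counts are by TPM, unlike the scaled counts used for the members above. By scaled counts beyond counting error, endothelial markers split 1 and 9 between replicates 1 and 2. Cardiomyocyte markers then split 2 and 5, and mural and smooth muscle markers 3 and 5. In other lists, 3 of 5 epicardial and 4 of 6 macrophage markers had the higher TPM in replicate 1, and 2 of each in replicate 2. By scaled counts beyond counting error, epicardial markers split 0 and 1 between replicates 1 and 2, and macrophage markers 0 and 2. By TPM, neural markers split 3 and 6 between replicates 1 and 2, and somite and presomitic markers 4 and 4. In both of these lists 0 markers were beyond counting error. Jag1, Dll4 and Rbpj went the way of most endothelial, cardiomyocyte and mural markers, whereas Notch1, Notch3 and Jag2 went the other way. The markers' part in these differences was not tested. Markers of the labelled tissue were present, and all 8 cardiomyocyte markers were detected, led by Actc1 at 9392 ± 340 TPM and Myl7 at 5787 ± 381 TPM (SD, n = 2). All 9 mural and smooth muscle markers were also detected, led by Acta2 at 1234 TPM and Tagln at 223 TPM. Myh11 was the lowest of them, with 1.3 and 1 TPM in replicates 1 and 2. All 5 epicardial markers (Upk3b at 76.0 TPM, Tcf21 at 62.0 TPM) and 5 of 6 macrophage markers (Lyz2 at 53.8 TPM, C1qb at 11.7 TPM) were detected as well.

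Most of the wider pathway was detected in these hearts. Of 66 further pathway genes grouped by role, 57 were detected, with a median of mean TPM of 12.1. Of the 63 tested, 1 was called between the libraries, beside 4.69% of all genes tested. Beyond counting error, without the fold, 15 of the 63 were higher in replicate 1 and 14 in replicate 2. Over all 16621 genes tested, 39.6% were beyond counting error, 3056 higher in replicate 1 and 3524 in replicate 2. Nothing particular to a list is read from such counts, here or below. The called gene was Cntn1, an adhesion protein reported as a Notch ligand, with 0.56 and 0.22 TPM from 89 and 24 counts (log2 ratio 1.41, adjusted p = 2.38e-05 by the binomial test). The 4 receptors had a median of 7.22 TPM, against 20.4 TPM for the genes of receptor cleavage. Of 10 cleavage genes 9 were detected, led by the gamma-secretase subunits Ncstn at 87.7 ± 3.87 TPM and Psenen at 76.2 ± 3.17 TPM and the ADAM protease Adam10 at 55.5 ± 5.40 TPM (SD, n = 2). In the list 1 gene was beyond counting error toward replicate 1 and 4 toward replicate 2. The subunit Aph1c was lowest, at 0.23 TPM in replicate 1 and 0.80 TPM in replicate 2.

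Enzymes that modify the receptor or the ligand had lower medians, 4.55 TPM for glycosylation and 4.34 TPM for ubiquitin ligases. All 5 glycosylation genes were detected: Poglut1, which adds O-glucose to Notch, at 26.2 ± 2.28 TPM, the Fringe enzyme Rfng at 11.6 ± 0.792 TPM and Pofut1, which adds O-fucose, at 4.55 ± 0.438 TPM (SD, n = 2). The Fringe enzyme Lfng was lowest at 2.29 ± 0.247 TPM, and 2 of the 5 were beyond counting error, both higher in replicate 2. All 4 ubiquitin ligases that act on ligands were detected as well. Mib1, which the ligands need to signal, had 13.0 ± 0.742 TPM, Mib2 6.84 ± 0.460 TPM, Neurl1b 1.84 ± 0.516 TPM and Neurl1a 1.70 ± 0.148 TPM (SD, n = 2). Of these, 2 were beyond counting error, both higher in replicate 1.

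Nuclear partners of Rbpj were all detected, 7 of 7 coactivators and 10 of 10 corepressors. Snw1, a splicing and transcription cofactor, led the coactivators at 66.8 ± 2.86 TPM, followed by the acetyltransferases Crebbp at 16.6 ± 1.18 TPM and Ep300 at 12.6 ± 2.85 TPM (SD, n = 2). The Mastermind gene Maml3 was lowest at 1.78 ± 0.290 TPM. Among corepressors Ctbp1 had 152 ± 15.98 TPM, the deacetylase Hdac1 121 ± 11.4 TPM and Ncor1 102 ± 10.8 TPM, and Rita1, which carries Rbpj out of the nucleus, was lowest at 4.97 ± 1.20 TPM (SD, n = 2). The medians of the lists were 9.22 TPM for coactivators and 20.4 TPM for corepressors. Beyond counting error, 3 coactivators were higher in replicate 1 and 0 in replicate 2, and 4 corepressors were higher in replicate 1 and 2 in replicate 2. Many genes in both lists serve other pathways too.

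Receptor turnover and noncanonical ligands were less complete. Of 10 turnover and feedback genes 8 were detected, with Dtx3 at 61.0 ± 0.127 TPM, Sel1l at 46.0 ± 4.002 TPM and the ubiquitin ligase Itch at 29.9 ± 0.559 TPM on top and Dtx1 lowest at 0.285 TPM (SD, n = 2). Beyond counting error, 1 of these was higher in replicate 1 and 3 in replicate 2. Of 9 noncanonical ligands 4 were detected, and of 7 tested 2 were higher in replicate 1 and 1 in replicate 2 beyond counting error. Mfap2, a microfibril protein, had 182 ± 0.820 TPM, the endothelial secreted protein Egfl7 had 112 ± 6.80 TPM and Dlk1, a Delta-like protein without the usual receptor-binding domain, had 45.7 ± 6.19 TPM (SD, n = 2). Dlk2 was lowest, with 0.20 and 0.07 TPM from 8 and 2 counts.

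Of 12 genes known as Notch targets, 11 were detected, with a median of mean TPM of 13.0. The repressors Hes1 and Hey1 averaged 21.9 ± 0.721 TPM and 21.8 ± 0.467 TPM (SD, n = 2). Hey2, the repressor known from compact ventricular muscle, had 21.2 and 16.7 TPM in replicates 1 and 2, beyond counting error (log2 ratio 0.39, adjusted p = 3.44e-09 by the binomial test). Hes5, the main Hes target in the nervous system, was lowest with 0.39 and 0.08 TPM, from 10 and 2 counts. Hey2 averaged 18.98 ± 3.18 TPM and Hes5 0.235 ± 0.219 TPM (SD, n = 2), and the sequences printed above hold a pair of GTGGGAA matches in each. Of 11 targets tested, 2 were higher in replicate 1 and 2 in replicate 2 beyond counting error. The 5 ligands had a median of 3.18 TPM, below that of the targets, as was that of the receptors.

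**Figure D4:**
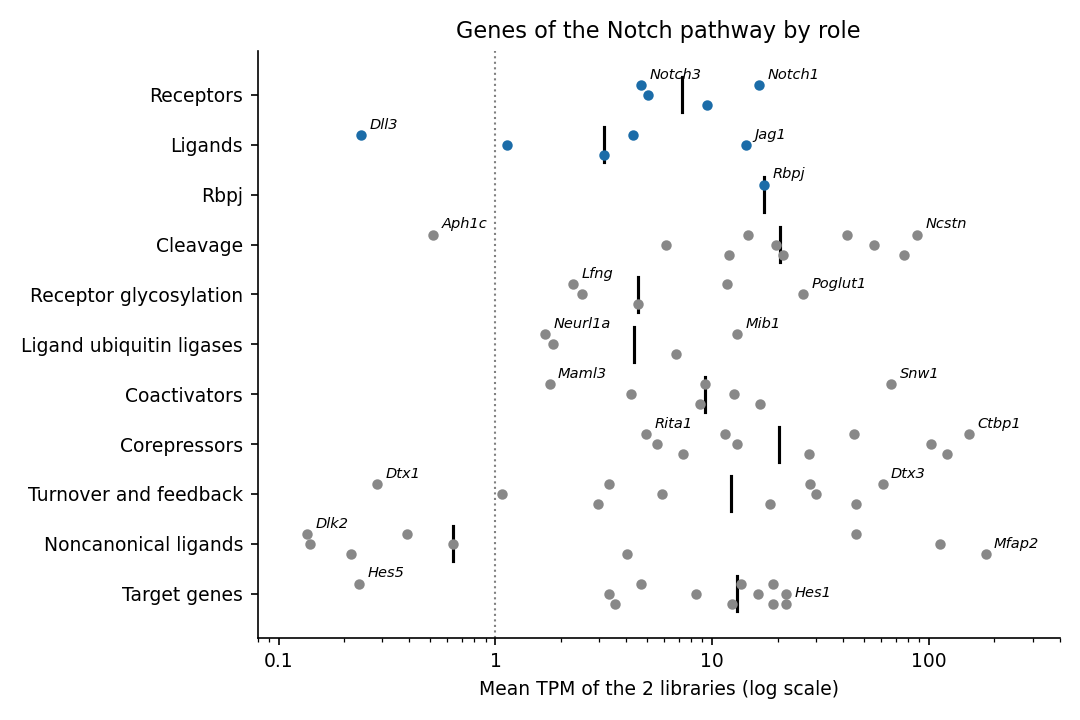
Mean TPM of the 2 libraries on a log axis for the Notch genes (blue) and 66 further genes of the pathway (grey), 1 row per role; Nrarp stands in both the turnover and the target rows. Black bars are row medians, the dotted line is a TPM of 1, and the lowest and highest gene of each row is named. Corepressors and cleavage genes have the highest medians of the added rows, 20.4 TPM each, and noncanonical ligands the lowest, 0.635 TPM.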

How the data were processed

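Total RNA of 2 heart libraries was analysed as 1 group; only the labels say that these are biological replicates, and the SD over them has no other basis. The authors deposited gene and transcript tables with expected counts, TPM, posterior means, the percent of a gene's TPM in each transcript and, in signal units, interval bounds of the TPM, per the file headers. The deposited README texts name mm10 and annotation M4; the aligner, quantifier and strand setting were not stated in any source used here. Replicate 1 totalled 37617442 expected counts (34447169 in mouse genes), and replicate 2 totalled 27642765 (25261719 in mouse genes). A limit of 3 counts is 0.0871 and 0.119 CPM in replicates 1 and 2, covering counting error only.

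Symbols, coordinates, exons and transcript names came from GENCODE M21 on GRCm38, a later annotation of the same assembly, which matched 42462 of 43346 genes. Sequences came from RefSeq. The members and lists were chosen with earlier results of these data known. All 10 members were named, with the 3 highest and the lowest gene of each pathway list and any pathway gene called between libraries. The 2 highest of each marker list were named too. Msgn1, Neurog1, Npr3, Myh11, Bmp10 and the overlapping and copy genes beyond these rules were named after their values were seen. Rounded counts were compared by the binomial test with 0.5 added for folds, over genes with a summed count of 20 or more, using edgeR 4.0.16 in R 4.3.3, with DESeq2 1.42.0 size factors as an alternative, and Python 3.11.15. An exact sign-flip test over 2 libraries cannot give a p below 0.5, so levels have no test. Only the binomial comparison and its adjustment were tested on simulated data, which held counting noise alone.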

Additional observations from a re-analysis of the deposited data

How the results depend on the processing

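No paired analysis was possible because there is 1 group. At a TPM threshold of 5, 4 members were detected; at 0.5, with TPM over mouse genes alone or without replicate 2, Jag2 passed too and the count was 9. With posterior mean TPM the log2 ratios were 1.07 for Notch1 over Notch2, 2.08 over Notch3, 1.54 over Notch4 and -2.09 for Dll4 over Jag1. Over protein-coding transcripts alone they were 0.30, 1.31 and 2.39 for Notch1 over Notch2, Notch3 and Notch4, and that of Dll4 over Dll1 turned to 0.087. By expected counts, which are not corrected for length, they were 0.18, 1.58 and 2.85 for the receptors, -2.77 for Dll4 over Jag1 and 0.032 for Dll4 over Dll1. With 1 added to each TPM they were 1.62 for Notch1 over Notch3, 1.53 over Notch4, -1.88 for Dll4 over Jag1 and 2.85 for Jag1 over Jag2. Under these settings the other ratios kept their sign and moved by less than 1 SD. The short transcripts of Notch1, Notch4 and Dll1 carry the changes seen over protein-coding transcripts; causes of the others were not tested. Members called between libraries stayed at 0 with DESeq2 size factors, total counts, no filter or a fold of 1.5 (then beside 9.00% of all genes), and 6 stayed beyond counting error. Levels moved by more than 1 SD for 7 of 10 members with TPM over mouse genes alone, and for 4 each with posterior mean TPM and over protein-coding transcripts. Mouse genes summed to 839772 and 829437 TPM in replicates 1 and 2, with the rest of the TPM in other rows. TPM over mouse genes alone thus raised all members of a library by the same factor and left their ratios unchanged. With 2 libraries, leaving 1 out says nothing about the stability of a level, and the order and the comparison of libraries need both. Depth limits Dll3, with 20 counts in all.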
